A study of Mus musculus with 16 samples.

Results

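Aminoacyl-tRNA synthetases attach each amino acid to its transfer RNA and so supply the ribosome with its substrates. Mammals keep one set of these enzymes in the cytosol and another, encoded by separate nuclear genes, in mitochondria. Several cytosolic enzymes are held together with scaffold proteins in a multisynthetase complex, and many are induced by the transcription factor ATF4 when amino acids run short. The gland that prepares for milk secretion makes large amounts of protein, which draws on the cytosolic set. The genes were taken by symbol from a table of messenger RNA levels: 36 symbols were looked for and 36 rows were found among 24187, of which 20 encode cytosolic and 16 mitochondrial enzymes. All 36 had a mean of at least 1 FPKM (reads per kilobase of gene, scaled between libraries by a factor that is not stated) and were tested among 13392 genes.

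The libraries came from whole mammary gland at day 13 of pregnancy, 4 from wild-type C57BL/6 mice (WT1 to WT4) and 3 from Socs2-Δs mice (Mut1 to Mut3), a line made by CRISPR/Cas9 editing and labelled with the same strain. Socs2 encodes an inhibitor of cytokine signalling through JAK and STAT proteins, and the study asks how genes respond to STAT5. Wild-type mice were bought from a vendor, so source and genotype cannot be told apart. The genotype tag of the 3 mutant libraries reads wild type, against their titles, and the titles were followed. The labels give no age and do not say that replicates came from different mice. The p-values therefore refer to variation among these libraries, which may be technical.

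Socs2 measured 25.6, 22.1, 24.8 and 16.1 FPKM in WT1 to WT4 and 17.1, 13.9 and 16.0 in Mut1 to Mut3, so the transcript was present in every library labelled as mutant. WT4 lay within the mutant range, and the log2 difference was -0.46 with 7 libraries (limma adjusted p = 0.267) and -0.58 against WT1 and WT2 (adjusted p = 0.0881). Reads recovered from the steps between values came to 21032973 to 24116908 per library. All 10 luminal epithelial markers, among them keratins 8 and 18, were above 0. Their summed level was 1208 to 1443 FPKM in WT1 and WT2, and 1749 and 783 in WT3 and WT4, while the mutant libraries held 1431 to 2172. WT3 and WT4 stood apart: 8 liver markers summed to 188.1 and 1897 FPKM there against 3.77 to 8.96 in the other 5 libraries, and 8 salivary gland markers to 420.4 and 239.7 against 29.1 to 84.7. The 5 macrophage markers found summed to 111.9 and 134.6 FPKM in WT3 and WT4 and to 43.0 to 74.8 elsewhere. Both libraries lay above the other 5 for 4 of these 5 markers. The 8 adipocyte markers summed to 12871 and 22391 FPKM there and to 3340 to 12178 elsewhere, with 2 of 8 above in both. Lymphocyte and skeletal muscle markers did not follow this split. The 6 B and T lymphocyte markers summed to 252.4 FPKM in WT4 and 183.8 in Mut2, and to 5.02 to 9.96 elsewhere. The 4 skeletal muscle markers summed to 167.0, 37.0, 476.5 and 112.4 FPKM in WT1 to WT4. In Mut1 to Mut3 the muscle sums were 119.9, 94.3 and 38.2. The nuclear RNA Neat1 measured 11.4 and 14.8 FPKM in WT3 and WT4 and 442.2 to 586.2 elsewhere. Genotypes were therefore compared both over all 7 libraries and with WT1 and WT2 as the only wild-type libraries.

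No synthetase gene passed the test between genotypes (limma on log2(FPKM + 1), Benjamini-Hochberg adjusted p under 0.05 over all genes). With 7 libraries 0 of 36 rose and 0 fell, where 0.0448% of all genes tested rose and 0% fell. Set against WT1 and WT2 alone, 0 of 36 rose and 0 fell, beside 1.26% and 0.68% of all genes. At an unadjusted p under 0.05, 3 members were higher and 0 lower with 7 libraries (9.12% and 8.98% of all genes), and 7 were higher and 0 lower against WT1 and WT2 (9.35% and 10.8%). The smallest adjusted p among members was 0.186 with 7 libraries, for the isoleucyl enzyme gene Iars, and 0.0706 against WT1 and WT2, for the glutaminyl enzyme gene Qars.

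Most point estimates lay above 0. The log2 difference, mutant minus wild type, was positive for 29 of 36 members with 7 libraries, where 49.6% of all genes were, and for 31 of 36 against WT1 and WT2, where 55% were. The other 5 were negative there, beside 44.9% of all genes. With 7 libraries the median was 0.16 for cytosolic and 0.29 for mitochondrial enzymes, against -0.0044 over all genes. In the 5-library comparison they were 0.13 and 0.16, against 0.031. The mitochondrial median thus moved closer to the cytosolic one once WT3 and WT4 were set aside. Both comparisons use the same mutant libraries and WT1 and WT2, so they are not independent. Scaling matters to these signs: when FPKM were rescaled to equal sums, the median of all genes against WT1 and WT2 moved to -0.22, and 10 of 36 members lay above 0. Relative to the median of all genes, 26 of 36 were above it on that scale and 27 of 36 on the deposited one.

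**Figure D1:**
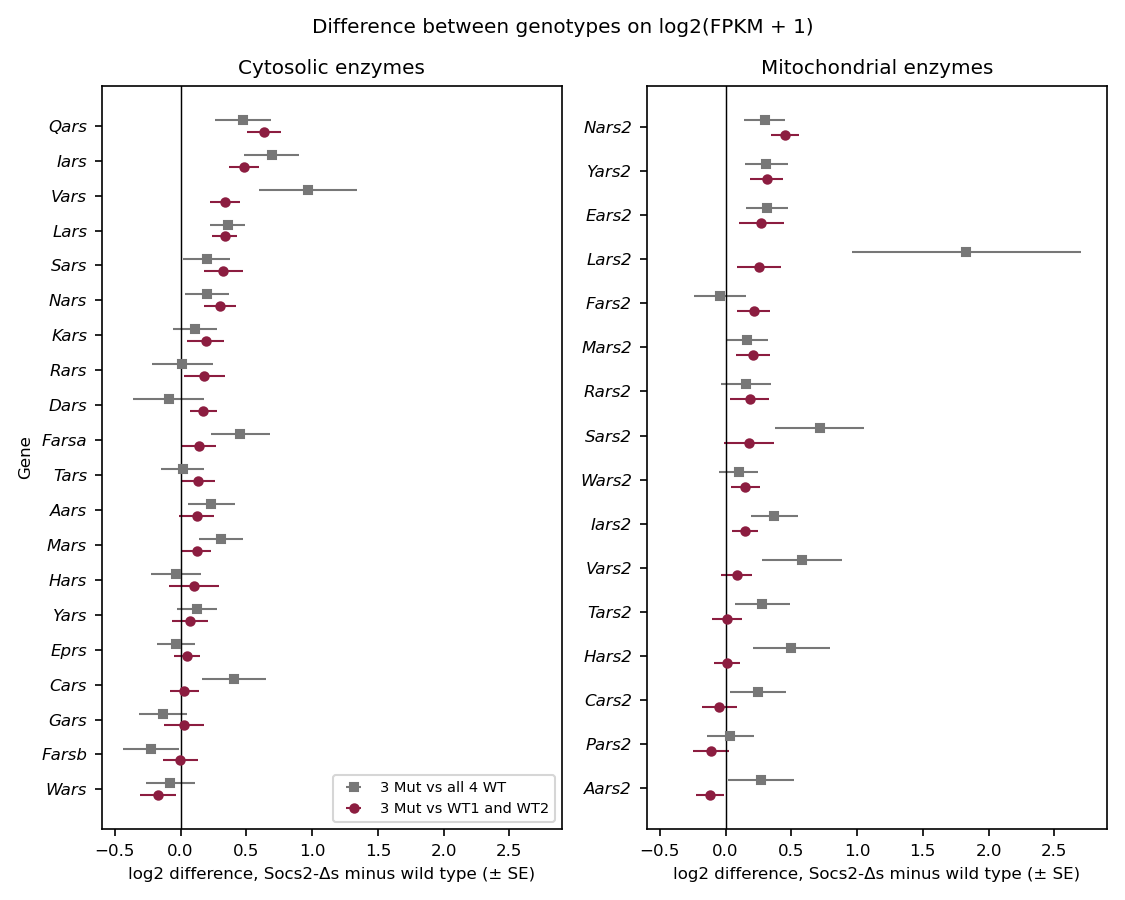
Log2 difference of each synthetase gene between Socs2-Δs and wild-type libraries, on log2(FPKM + 1) with its standard error, for cytosolic (left) and mitochondrial (right) enzymes. Grey squares use all 4 wild-type libraries and red circles WT1 and WT2 only. Lars2, Vars and Sars2 have the widest bars in the 7-library comparison.

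The mutant and wild-type libraries did not overlap for 5 members, the mutant being higher in each: Iars, Lars, Vars, Iars2 and Lars2. The background was 12.5% of all genes. When WT3 and WT4 were left out, the mutant libraries were higher without overlap for 7 of 20 cytosolic and 7 of 16 mitochondrial enzymes (background 21.8%) and lower for 1 member, the mitochondrial alanyl enzyme gene Aars2 (background 18.1%). Adipocyte markers moved with genotype as well: their sum was 10316 to 22391 FPKM in the wild-type and 3340 to 6467 in the mutant libraries, and 8 of 8 had a negative difference, of which 2 passed the test against WT1 and WT2. All 10 luminal markers had a positive difference, with a median of 0.40 against WT1 and WT2. The 5 macrophage markers found were lower without overlap in both comparisons, with sums of 43.0 to 61.8 FPKM in the mutant and 68.3 to 134.6 in the wild-type libraries. The part of cell makeup in the synthetase values was not tested, and in whole tissue fewer cells of a type and less RNA per cell cannot be told apart.

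Among the 8 synthetases of the multisynthetase complex, Qars, which charges glutamine, an abundant amino acid of caseins, had the highest mean of the cytosolic members over 7 libraries, although Vars was higher in WT1, WT2, Mut1 and Mut2. Qars measured 45.4, 51.2, 75.1 and 48.1 FPKM in WT1 to WT4 and 70.9, 72.7 and 83.2 in Mut1 to Mut3. WT3 lay within the mutant range, and the other 3 wild-type libraries lay below it. Against WT1 and WT2 the mutant mean was 1.56 times higher (log2 difference 0.63, SE 0.13, adjusted p = 0.0706), and with 7 libraries 1.38 times (0.48, SE 0.21, adjusted p = 0.284). Quantile normalization alone among the settings tried took Qars past the threshold against WT1 and WT2 (0.59, adjusted p = 0.0317).

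Iars measured 16.5, 17.6, 15.4 and 10.0 FPKM in WT1 to WT4 and 26.7, 23.2 and 22.7 in the mutant libraries. Every mutant library was above every wild-type one, and WT4 was the lowest. The difference was 0.69 with 7 libraries (SE 0.21, adjusted p = 0.186) and 0.48 against WT1 and WT2 (SE 0.11, adjusted p = 0.0984). Lars, for leucine, had a narrow wild-type spread, with 17.1, 17.5, 17.5 and 15.9 FPKM against 21.1, 23.3 and 21.8. Its groups did not overlap, and WT3 and WT4 sat with the other wild-type libraries. Its difference was 0.36 (SE 0.13, adjusted p = 0.234) with 7 libraries and 0.33 (SE 0.10, adjusted p = 0.142) against WT1 and WT2.

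The other 5 enzymes of the complex showed smaller differences. Without WT3 and WT4 they were 0.19 for the lysyl enzyme gene Kars, 0.18 for Rars (arginine), 0.17 for Dars (aspartate), 0.12 for Mars (methionine) and 0.05 for Eprs, the fused glutamyl and prolyl enzyme. Eprs varied little between libraries, from 26.8 to 33.1 FPKM. Kars, whose transcripts serve both compartments, measured 42.3, 51.8, 57.6 and 48.1 FPKM in WT1 to WT4 and 49.8, 52.4 and 59.0 in the mutant libraries, which overlapped. Mars measured 21.9, 25.3, 18.0 and 18.0 FPKM against 25.6, 26.8 and 24.8. For Mars, WT2 lay within the mutant range and WT3 and WT4 were lowest. In all, 8 of 8 complex members had a positive difference against WT1 and WT2 (median 0.19), and 6 of 8 with 7 libraries (0.21). The other 12 cytosolic genes had medians of 0.11 and 0.16. The 3 scaffold genes of the complex were Aimp1 (0.32), Eef1e1 (0.20) and Aimp2 (-0.0087) against WT1 and WT2. With 7 libraries all 3 had negative differences (-0.12, -0.16 and -0.048), and 0 of 3 passed in either comparison.

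**Figure D2:**
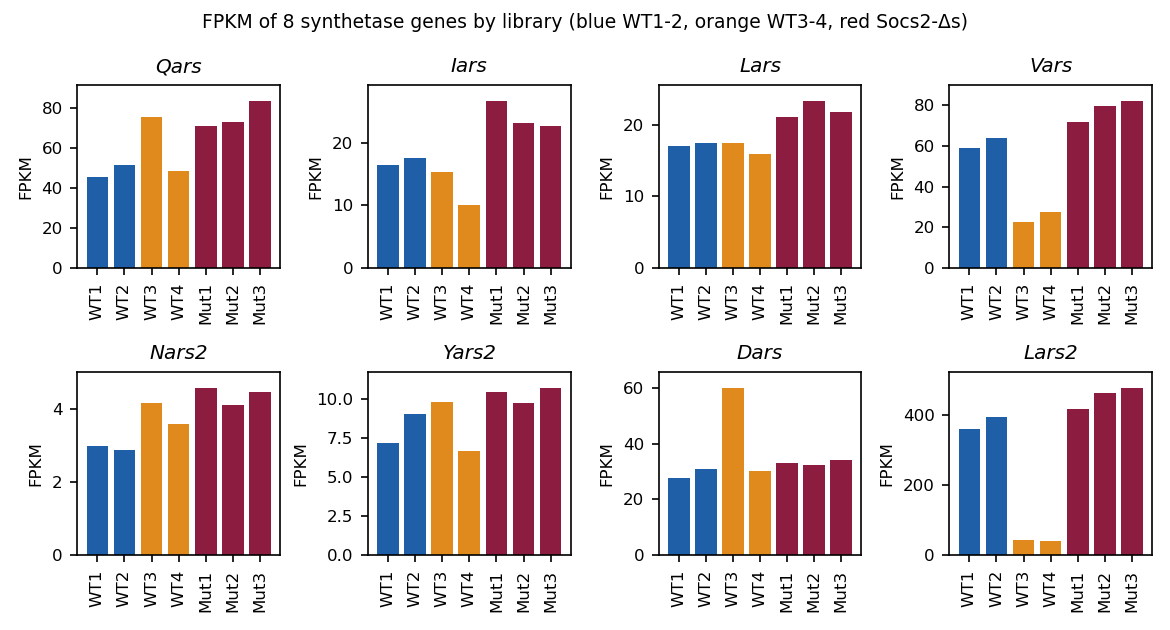
FPKM of 8 synthetase genes in each of the 7 libraries, 1 bar per library on an axis from 0 that differs between panels. For Lars and Iars all 3 mutant libraries exceeded all 4 wild-type ones. Vars and Lars2 were low in WT3 and WT4, and Dars was high in WT3 alone.

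Outside the complex, Vars, for valine, measured 58.9 and 63.7 FPKM in WT1 and WT2, 22.6 and 27.5 in WT3 and WT4, and 71.9, 79.5 and 82.0 in the mutant libraries. The mutant libraries were highest and WT3 and WT4 far below the rest. Its 7-library difference of 0.97 (SE 0.37, adjusted p = 0.248) was 0.34 (SE 0.12, adjusted p = 0.193) once those libraries were set aside. Nars, for asparagine, measured 44.6, 52.6, 61.7 and 50.0 FPKM in WT1 to WT4 and 58.3, 58.5 and 62.6 in the mutant libraries. Sars, for serine, measured 34.1, 40.6, 49.2 and 40.4 against 41.8, 45.8 and 53.7. In both genes WT3 fell within the mutant range while WT1, WT2 and WT4 lay below it. Their differences against WT1 and WT2 were 0.30 (adjusted p = 0.243) and 0.32 (adjusted p = 0.303).

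Gars, the glycyl enzyme gene that also serves both compartments, measured 36.3, 45.5, 51.5 and 50.4 FPKM in WT1 to WT4 and 36.8, 42.4 and 45.4 in the mutant libraries. The groups overlapped, with a difference of -0.13 with 7 libraries and 0.025 against WT1 and WT2. Cars, for cysteine, was the least abundant cytosolic member, at 11.0, 12.4, 6.69 and 6.27 FPKM in WT1 to WT4 and 11.5, 12.8 and 11.5 in the mutant libraries. WT1 and WT2 resembled the mutant libraries, and WT3 and WT4 were lower. The remaining 5 free cytosolic genes besides Farsa and Farsb gave differences against WT1 and WT2 of 0.13 for Tars, 0.12 for Aars, 0.10 for Hars, 0.069 for Yars and -0.17 for Wars, the tryptophanyl enzyme gene that interferon gamma induces. The groups overlapped for each of these 5.

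Phenylalanyl-tRNA synthetase is a tetramer of alpha and beta subunits, encoded by Farsa and Farsb. Farsa measured 22.5, 26.2, 14.9 and 15.7 FPKM in WT1 to WT4 and 24.6, 26.1 and 30.0 in Mut1 to Mut3. Farsb measured 20.6, 24.9, 37.2 and 26.2 in WT1 to WT4 and 20.9, 21.9 and 25.2 in the mutant libraries. WT3 and WT4 were thus the lowest libraries for one subunit and the highest for the other. The ratio of Farsa to Farsb was 1.09 and 1.05 in WT1 and WT2, and 0.399 and 0.600 in WT3 and WT4, while the mutant libraries had 1.17 to 1.19.

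The promoters of some of these genes hold the core of the element bound by C/EBP and ATF4. The letters TGATGNAA were searched on both strands from 250 bases before to 50 after each start in RefSeq promoters of GRCm38.p6, which hold 26 of the 36 members. Here and for the motifs below, a member counted if any of its promoters matched, while the share over all promoters counts each one singly. The motif was found in 5 of 12 cytosolic and 0 of 14 mitochondrial members with a promoter, and in 3.97% of all 32851 promoters. The 5 are shown because they share these letters, and Qars because it came first by p against WT1 and WT2 and lacks them. Each runs from 120 bases before to 17 after the start, with the motif in capitals.
Iars, chr13:49682010-49682146, plus strand: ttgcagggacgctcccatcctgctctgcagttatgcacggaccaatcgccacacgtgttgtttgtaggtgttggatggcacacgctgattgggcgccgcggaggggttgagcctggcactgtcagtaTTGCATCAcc
Aars, chr8:111033722-111033858, plus strand: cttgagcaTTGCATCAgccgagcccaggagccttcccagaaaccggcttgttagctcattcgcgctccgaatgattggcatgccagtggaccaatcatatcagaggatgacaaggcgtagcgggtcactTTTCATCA
Gars, chr6:55037881-55038017, plus strand: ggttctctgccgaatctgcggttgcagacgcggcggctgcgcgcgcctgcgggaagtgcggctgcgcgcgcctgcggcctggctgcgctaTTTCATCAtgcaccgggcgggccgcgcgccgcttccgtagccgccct
Tars, chr15:11399642-11399778, minus strand: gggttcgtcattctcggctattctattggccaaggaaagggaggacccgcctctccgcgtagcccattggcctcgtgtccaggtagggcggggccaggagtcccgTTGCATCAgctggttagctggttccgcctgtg
Yars, chr4:129189783-129189919, plus strand: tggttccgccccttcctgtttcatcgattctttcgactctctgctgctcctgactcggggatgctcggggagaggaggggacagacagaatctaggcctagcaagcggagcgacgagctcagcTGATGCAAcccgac
Qars, chr9:108507885-108508021, plus strand: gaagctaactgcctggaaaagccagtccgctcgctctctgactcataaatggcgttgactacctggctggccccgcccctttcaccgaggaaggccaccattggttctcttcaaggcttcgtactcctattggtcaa

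Of the 5 genes with the motif, Iars had a difference of 0.48 against WT1 and WT2, and Tars, Aars, Yars and Gars lay between 0.025 and 0.13. The STAT motif TTCNNNGAA was found in the promoters of Aars, Kars and Nars2, 3 of 26, and in 8.30% of all promoters. The E-box CACGTG was found in Aars, Ears2, Farsb, Iars and Tars, 5 of 26, and in 7.15% of all. None of the 3 motifs occurs in the Qars window. A match is a description of letters, not of binding. The 12 cytosolic genes described elsewhere as ATF4 targets had a median difference of 0.12 against WT1 and WT2, with 11 of 12 positive, and the other 8 cytosolic genes had 0.18, with 7 of 8 positive. With 7 libraries the order of the medians was the opposite, at 0.20 (9 of 12 positive) and 0.060 (5 of 8).

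Other genes of the ATF4 programme did not share one direction. Of 27 tested, 14 were higher and 13 lower against WT1 and WT2 (median 0.022), and 16 higher and 11 lower with 7 libraries (0.068). Slc7a5, the large neutral amino acid transporter subunit, rose from 16.0 ± 4.0 FPKM in wild type (SD, n = 4) to 48.2 ± 2.67 in mutant glands (SD, n = 3), with a difference of 1.27 against WT1 and WT2 (limma adjusted p = 0.0180) and of 1.56 with 7 libraries (adjusted p = 0.0761). It was the only gene of the list to pass, in the first of these comparisons. Psat1, of serine synthesis (-0.59, adjusted p = 0.0613), and the cystine transporter gene Slc7a11 (-0.55, adjusted p = 0.0661) followed by p against WT1 and WT2. Asns, which makes asparagine, differed by -0.26 and Atf4 itself by 0.26. Of the 14 genes for eIF2, its exchange factor, kinases and phosphatase subunits, 11 were higher against WT1 and WT2 (median 0.14) and 10 with 7 libraries (0.084), and 0 passed. The kinase gene Eif2ak3 came first by p against WT1 and WT2 (0.50, adjusted p = 0.0661), followed by Ppp1r15b (0.32) and Eif2b4 (0.44).

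Mitochondrial enzymes were less abundant than cytosolic ones in every library by their class median. Cytosolic medians were 25.2, 28.4, 32.4 and 27.0 FPKM in WT1 to WT4 and 28.4, 29.2 and 29.8 in Mut1 to Mut3. Mitochondrial medians were 7.71, 9.44, 5.68 and 6.62 in WT1 to WT4 and 9.19, 9.50 and 11.5 in Mut1 to Mut3. The ratio of the medians was 3.01 to 3.26 in WT1 and WT2, 5.70 in WT3 and 4.09 in WT4, and 2.59 to 3.09 among the mutant libraries.

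When each mitochondrial gene was set against the cytosolic gene for the same amino acid, the cytosolic gene was higher in every library for 12 of 16 pairs. The widest gaps were those of Eprs over Pars2, for proline (12.4 to 22.0 times), and Nars over Nars2 (12.8 to 18.3 times). For 3 pairs the mitochondrial gene was higher in every library: Lars2 over Lars, Iars2 over Iars and Cars2 over Cars. Iars measured 0.565 to 0.929 and Cars 0.692 to 0.975 of its mitochondrial counterpart. Farsa exceeded Fars2 by 1.65 to 1.85 times in 5 libraries and was below it in WT3 and WT4, at 0.712 and 0.886.

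**Figure D3:**
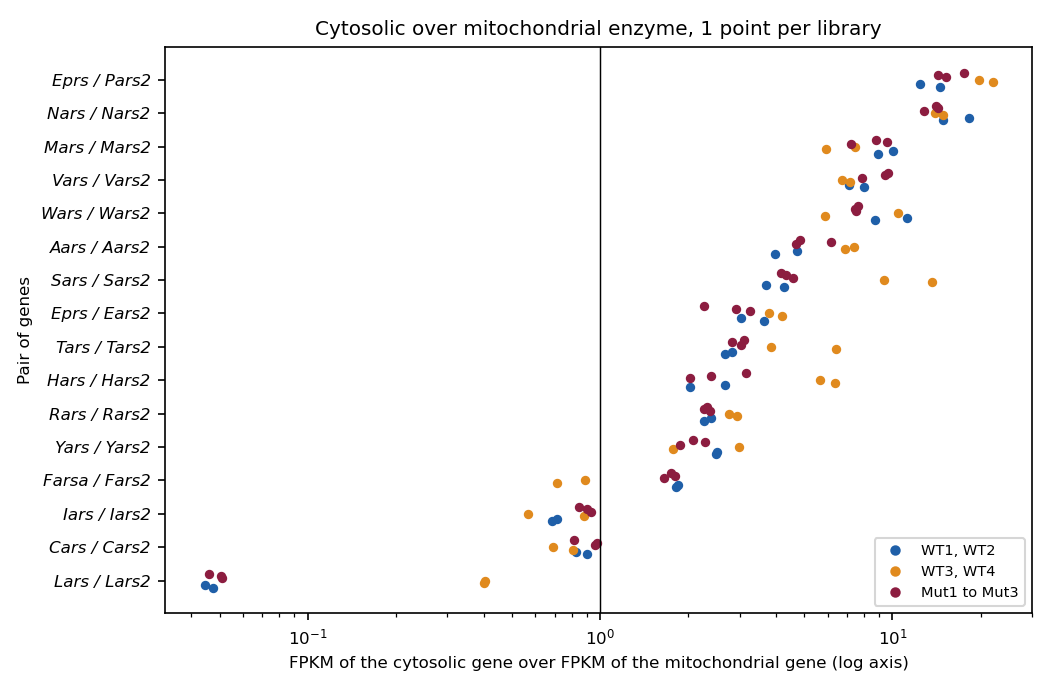
FPKM of the cytosolic gene divided by FPKM of its mitochondrial counterpart for 16 pairs, 1 point per library, on a log axis; the vertical line marks equal levels. Lars over Lars2 lies lowest, at 0.0444 to 0.0509 in 5 libraries and 0.401 and 0.404 in WT3 and WT4.

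Lars2, the mitochondrial leucyl enzyme gene, had the highest mean of all 36 and the highest level in the 5 libraries other than WT3 and WT4. It measured 360.2 and 394.2 FPKM in WT1 and WT2, 43.7 and 39.5 in WT3 and WT4, and 415.2, 462.0 and 474.8 in the mutant libraries. WT3 and WT4 were about an order of magnitude below the other libraries, at 0.11 of the mean of WT1 and WT2. The same 2 libraries were low for Neat1, at 0.0289 of that mean, and the part of this in Lars2 was not tested. Lars2 made up 72.9 to 75.9% of the summed mitochondrial FPKM in 5 libraries and 27.6 and 27.3% in WT3 and WT4. Its span overlaps the long noncoding RNA gene Gm46137 in the RefSeq annotation of GRCm38.p6, and no use of strand is stated for the counting. Whether reads of that gene add to the Lars2 value was not tested. Between genotypes Lars2 differed by 1.83 with 7 libraries (SE 0.87, adjusted p = 0.299) and by 0.26 against WT1 and WT2 (SE 0.17, adjusted p = 0.457).

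Nars2, for mitochondrial asparagine, came first by p in its class against WT1 and WT2. It measured 2.99, 2.88, 4.15 and 3.58 FPKM in WT1 to WT4 and 4.56, 4.10 and 4.46 in the mutant libraries. WT3 lay just above the lowest mutant library, and WT1 and WT2 were lowest. The difference was 0.45 against WT1 and WT2 (SE 0.11, adjusted p = 0.0988) and 0.30 with 7 libraries (adjusted p = 0.334). Yars2, for tyrosine, measured 7.17, 9.02, 9.76 and 6.67 FPKM against 10.4, 9.71 and 10.6. Only WT3 reached the mutant range, by a narrow margin, and the difference was 0.31 in both comparisons (adjusted p = 0.245 against WT1 and WT2).

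Iars2 measured 24.0, 24.6, 17.5 and 17.7 FPKM in WT1 to WT4 and 28.8, 25.8 and 26.7 in the mutant libraries. Its groups did not overlap, but WT2 and Mut2 were close, and the difference against WT1 and WT2 was 0.15 (adjusted p = 0.472). Ears2, for glutamate, measured 7.35, 9.31, 7.89 and 7.62 FPKM against 9.21, 9.30 and 12.4, so that Mut3 stood above the rest and WT2 was level with the other mutant libraries. Sars2 measured 8.05, 11.0, 3.61 and 4.31 FPKM against 9.17, 10.6 and 12.9. WT3 and WT4 were lowest for Sars2, and its difference of 0.72 with 7 libraries was 0.18 without them.

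Fars2 measured 12.4, 14.1, 20.9 and 17.7 FPKM in WT1 to WT4 and 14.9, 14.5 and 17.2 in the mutant libraries. Here WT3 and WT4 were the highest, and the difference was -0.042 with 7 libraries and 0.21 against WT1 and WT2. Mars2 measured 2.46, 2.53, 3.05 and 2.42 FPKM against 3.54, 2.81 and 2.83, and the groups overlapped through WT3. Pars2, for proline and with the lowest mean of all members, measured 1.84, 2.27, 1.502 and 1.46 FPKM against 1.97, 1.91 and 1.60, a difference of 0.037 with 7 libraries and -0.11 against WT1 and WT2. It rested on 92 to 169 recovered reads per library. Differences of the other 7 mitochondrial genes against WT1 and WT2 ran from -0.12 for Aars2 to 0.18 for Rars2, with Wars2 at 0.15, Vars2 at 0.084, Tars2 at 0.013, Hars2 at 0.010 and Cars2 at -0.047.

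The contrast between the classes was widest in WT3 and WT4. Both of these libraries lay below the other 5 for 9 of 16 mitochondrial and 5 of 20 cytosolic genes, beside 25.2% of all genes tested. They lay above the other 5 for 1 mitochondrial gene, Fars2, and 2 cytosolic ones, Farsb and Gars, beside 25.1%. The 9 mitochondrial genes were Lars2, Sars2, Vars2, Hars2, Aars2, Cars2, Tars2, Iars2 and Pars2. The 5 cytosolic genes were Vars, Cars, Farsa, Iars and Mars. The median difference between WT3 and WT4 and WT1 and WT2 was -0.37 for mitochondrial and 0.16 for cytosolic enzymes, and 0.051 over all genes. Without Lars2 the mitochondrial median was -0.30.

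**Figure D4:**
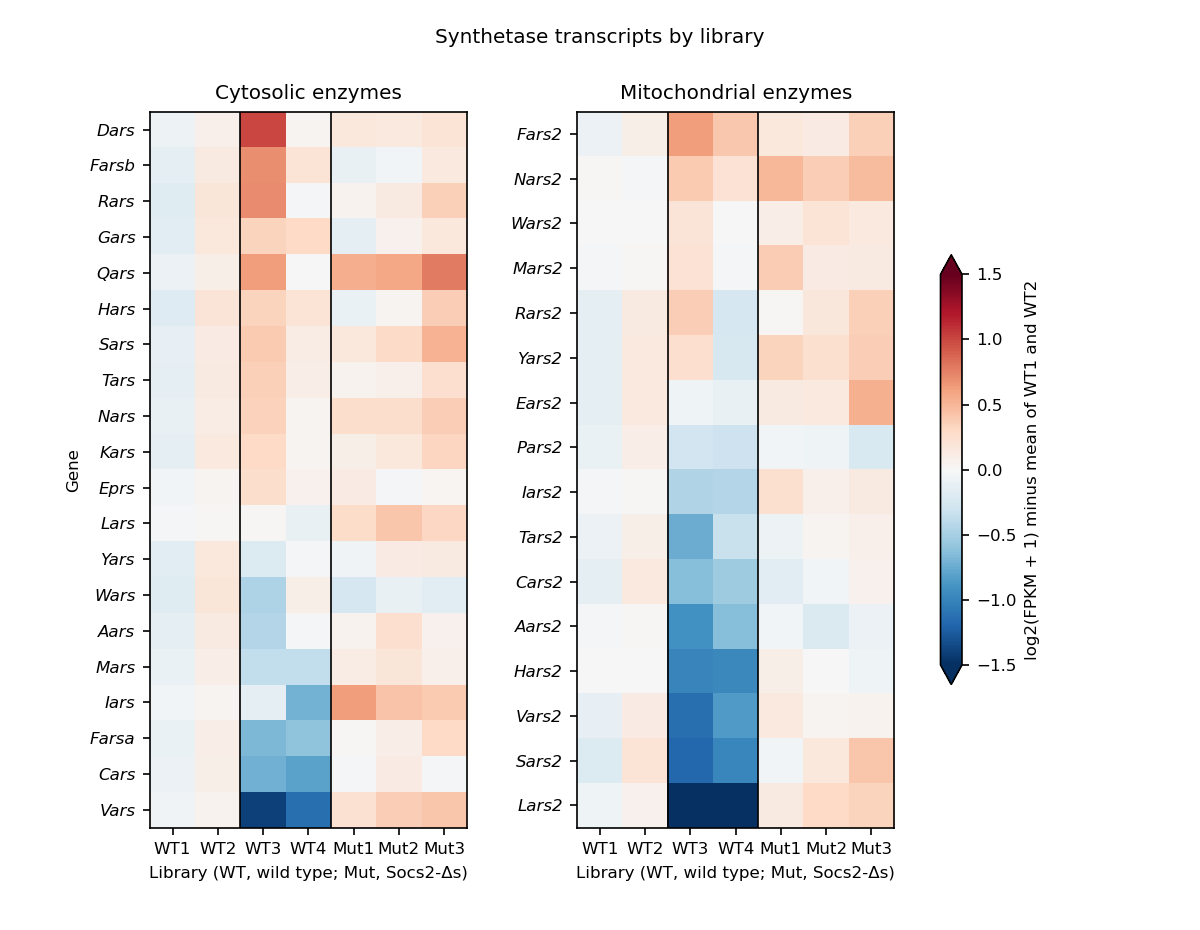
Deviation of each gene in each library from the mean of WT1 and WT2 on log2(FPKM + 1), for cytosolic (left) and mitochondrial (right) enzymes, ordered by the level in WT3 and WT4. Red is higher and blue lower, and Lars2 in WT3 and WT4 lies beyond the colour range. The columns of WT3 and WT4 hold the strongest colours.

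Both members of the valine pair were low in WT3 and WT4. Vars there had 0.409 and Vars2 0.443 of the mean of WT1 and WT2. Other pairs parted: Sars2 had 0.415 while Sars had 1.20, and Hars2 had 0.472 while Hars had 1.20. Hars and Hars2 overlap in the RefSeq annotation of GRCm38.p6, and no use of strand is stated for the counting, so reads of the shared stretch cannot be told apart. Dars measured 59.8 FPKM in WT3, and 27.8, 30.8 and 30.1 in WT1, WT2 and WT4, with 32.9, 32.4 and 34.0 in the mutant libraries.

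Mitochondrial ribosomal protein genes were mostly higher in WT3 and WT4. Of 77 mitochondrial ribosomal protein genes, both libraries lay above the other 5 for 47 and below them for 0. Among all genes tested the shares were 25.1% above and 25.2% below. The median difference of the 77 genes from WT1 and WT2 was 0.61. The 9 mitochondrial translation factors had a median of 0.048, and both libraries lay below the other 5 for 3 of them (Gfm2, Mtif2 and Mtif3) and above for 2 (Mtrf1 and Mrrf). Tufm, the elongation factor that carries charged tRNA, had wild-type libraries at 48.4 ± 3.30 FPKM (SD, n = 4) and mutant ones at 52.1 ± 2.77 (SD, n = 3). Between genotypes 0 genes of either list passed. In the comparison with WT1 and WT2, 48 of 77 ribosomal protein genes were higher (median 0.081, Mrpl38 first by p at 0.56, adjusted p = 0.180), as were 7 of 9 factors (0.12), of which Gfm2 came first by p (0.22, adjusted p = 0.340). With 7 libraries the ribosomal protein genes lay on the other side of 0, with 14 higher and 63 lower (median -0.23), while 6 of 9 factors were higher (0.10). Among all genes, 55% were higher against WT1 and WT2 and 49.6% with 7 libraries. The 4 genes tested for amidation and formylation of mitochondrial tRNA had a median of 0.074 against WT1 and WT2 and 0.11 with 7 libraries, with Qrsl1, the amidotransferase subunit gene, at 0.18, and 0 passed.

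Cytosolic elongation factors and tRNA maturation genes also gave no call. Of 6 elongation factor genes 5 were higher against WT1 and WT2 (median 0.30), led by Eef2, which moves the ribosome along the message (0.52, adjusted p = 0.243), and Eef1g (0.47). With 7 libraries 2 of 6 were higher and the median was -0.17. Of 19 tRNA maturation and export genes 10 were higher and 9 lower against WT1 and WT2 (median 0.047), while 7 were higher and 12 lower with 7 libraries (-0.087). First by p against WT1 and WT2 were the tRNA exporter gene Xpot at 0.30, Elac2 at 0.23 and Pop4 at -0.73. Of the 8 synthetase-like and trans-editing genes, 6 were higher against WT1 and WT2 (median 0.010) but 2 with 7 libraries (-0.23), and 0 passed. Leading by p against WT1 and WT2 were Tarsl2 (0.25), Sepsecs, of selenocysteine synthesis (0.32), and Aarsd1 (-0.096).

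Grouped by fold, the 19 class I enzymes had a median of 0.18 and the 17 class II enzymes one of 0.13 against WT1 and WT2, and of 0.31 and 0.20 with 7 libraries. All 5 genes without overlap in 7 libraries were of class I. The count was thus 5 of 19 for class I and 0 of 17 for class II. Over both classes it was 5 of 36, close to the 12.5% of all genes given above. Against WT1 and WT2 the class counts were 9 of 19 and 5 of 17, beside 21.8%. Eprs, the fused glutamyl and prolyl enzyme, was counted once, in class I. This split was not tested.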

How the data were processed

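The authors deposited FPKM for 7 RNA libraries in a table of 24187 rows, and per the labels' protocols these were poly(A) RNA libraries made with a TruSeq kit. CASAVA, STAR, Bowtie2 and DESeq2 and the build mm9 are listed in the submitters' processing notes, with no version. For annotation, filters and strand, the steps are not given in the sources read. The other 9 samples (ChIP-seq, DNase-seq) are not used here.

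The 13392 genes that averaged 1 FPKM or more over 7 libraries were tested with limma 3.58.1 in R 4.3.3 (linear model, empirical Bayes with trend) on log2(FPKM + 1), a scale that shrinks the changes of weakly expressed genes, with Benjamini-Hochberg adjustment and a threshold of 0.05. The test was run on simulated data whose spread was taken from the 5 libraries other than WT3 and WT4. That check cannot show how the 7-library fit behaves where WT3 and WT4 stand apart. No covariate was used. The same fit was run for the mutant libraries against WT1 and WT2, on the same genes. Reads were recovered as the largest step of which a gene's values are whole multiples (tolerance 0.02 of a read), which solved 21042 of the 21044 rows with any signal, up to an unknown factor that all libraries of a gene share. The pseudocount, filter, scaling, replicates and covariates were varied, with the effect given in the closing section. Members and lists were chosen with earlier results of these data known. Full values follow a rule: the 6 cytosolic and 4 mitochondrial members of smallest p in each comparison, the highest and lowest mean of each class, Gars, Kars and Socs2. Related lists give up to 3 genes of smallest p. Dars, Farsb, Wars2, Neat1, Asns, Atf4, Mtif2, Mtif3 and Mtrf1 were singled out after their values were seen. Of the related lists, Pet112 was not found by symbol. All 36 Entrez IDs were found in a RefSeq table of GRCm38.p6, in which 16 members overlap another gene, among them Mars with Ddit3 and Iars with small nucleolar RNA genes.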

Additional observations from a re-analysis of the deposited data

Results flagged for a closer look

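In 4 wild-type libraries, 37 genes (the 36 members and Socs2) were screened for a library far from the other 3, by Dixon's ratio of the gap to its nearest neighbour over the range, and 2 genes had one. Chance alone gives about 1 in 20 groups. Dars measured 59.8 FPKM in WT3 against 27.8 to 30.8 in the other wild-type libraries. Wars2 measured 2.63 FPKM in WT3 against 2.16 to 2.20.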

How the results depend on the processing

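Precision is limited by 4 and 3 libraries and, for 18 of the 36 members, by fewer than 1000 recovered reads in at least 1 library. With 7 libraries 0 members passed under any setting tried, and against WT1 and WT2 the count of higher members was 1 under quantile normalization (Qars) and 0 elsewhere. Against WT1 and WT2, equal sums moved the cytosolic median to -0.13 and the mitochondrial one to -0.071, while leaving out single libraries gave 0.017 to 0.26 and 0.083 to 0.22. The lowest values were those without WT1, and the highest those without WT2. Over all genes, calls with 7 libraries were 6 higher and 0 lower, but 1 and 0 with a pseudocount of 0.1 or no filter, 0 and 0 with equal sums, the replicate block or the term for WT3 and WT4, 25 and 3 by quantile normalization, and 0 to 31 higher leaving out single libraries (17 without WT3, 31 without WT4, 0 otherwise). Calls against WT1 and WT2 were 169 higher and 91 lower, but 23 and 2 without the filter, 101 and 245 with equal sums, 102 and 28 with the replicate block, and leaving out WT1, WT2, Mut1, Mut2 or Mut3 left 1, 0, 1, 6 or 36 higher genes.

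Among the 20 members with full values, those that changed sign did so without passing the threshold. With 7 libraries these were Fars2 (0.0054 with the replicate block, 0.21 with the term, -0.16 to 0.080 leaving out single libraries), Pars2 (-0.016 by quantile normalization, -0.017 with the block, -0.11 with the term, -0.017 to 0.12) and Gars (0.020 by quantile normalization, 0.025 with the term). Against WT1 and WT2, equal sums turned Farsa (-0.12), Mars (-0.14), Sars2 (-0.071), Lars2 (-0.014), Iars2 (-0.11), Fars2 (-0.041), Cars (-0.23), Gars (-0.24) and Kars (-0.074). The replicate block turned Gars (-0.040), quantile normalization Cars (-0.0037), and leaving out single libraries Sars2 (-0.028 to 0.38), Cars (-0.055 to 0.11) and Gars (-0.13 to 0.19). The cause was not tested.

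Libraries of the same replicate number correlated best for numbers 1 and 3 but not for 2. Their deviations correlated at 0.35, -0.104 and 0.283 for numbers 1 to 3, and WT2 correlated best with Mut3 (0.116). WT4, which has no mutant library of its number, correlated with Mut2 at 0.338, above the same-number value for 3. The labels do not say whether the numbers pair the libraries. The replicate block changed no member's call.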
